A study of Mus musculus with 4 samples.

Results

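Claudins and their partners at the tight junction were described here in mouse intestinal organoids, small epithelial structures kept in a Matrigel culture that hold crypt-like buds and surface-like cells. The set has 10 genes, chosen by gene symbol: Cldn2, Cldn3, Cldn4, Cldn7, Cldn8, Cldn12, Cldn15, Cldn23, Ocln and Tjp1. They are read by 16 of the 45101 Affymetrix probe sets on each array, and the arrays name 18193 genes in all. There were 4 arrays, 1 for each group: Tacc3 fl/fl at day 6, Tacc3 wt/wt at day 6, Tacc3 fl/fl at day 4 and Tacc3 wt/wt at day 4. All 4 cultures, the wt/wt ones included, received 4OHT (4-hydroxytamoxifen) for 24 hours, the drug used to recombine Apc and floxed Tacc3. Tacc3 encodes a spindle protein and Apc a tumour suppressor of the Wnt pathway. By the sample descriptions the organoids were Apc-deficient at day 6 and normal at day 4, but the design text places recombination before both collections, so day and Apc state cannot be told apart. The sources used here give neither the Cre driver, nor the age and strain of the animals, nor how many cultures stand behind an array.

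The tight junction seals the space between neighbouring epithelial cells near their apex. Claudins are membrane proteins with 4 spans whose extracellular loops meet those of the next cell and either close this space or leave charge-selective pores in it. Occludin strengthens the strand, and zonula occludens proteins such as the product of Tjp1 tie the strand to actin. In the intestine, pore-forming claudins are known from the crypts and the sealing ones mostly from surface cells, and the mix changes along the gut.

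The promoter windows of 4 of these genes show what their starts share and where they differ. The sequences are RefSeq windows of build GRCm38.p6, from 250 bases before to 50 after an annotated start, read 5′ to 3′ on the gene's strand. Windows were given for 8 of the 10 genes, 12 in all, and the outermost start of each gene was used. Other starts of these genes were left out of the counts below. Ocln and Cldn7 are shown as genes with large day differences, Cldn2 as the pore-forming claudin, and Cldn4 as a gene whose day difference missed the test. Capitals mark CAGGTG, the E-box that Snail repressors are known to bind in claudin and occludin promoters, and the C-rich run CCCCTCCC, each on either strand. Cldn8 and Cldn23 are named only.
Ocln, chr13:100552669-100552968, minus strand: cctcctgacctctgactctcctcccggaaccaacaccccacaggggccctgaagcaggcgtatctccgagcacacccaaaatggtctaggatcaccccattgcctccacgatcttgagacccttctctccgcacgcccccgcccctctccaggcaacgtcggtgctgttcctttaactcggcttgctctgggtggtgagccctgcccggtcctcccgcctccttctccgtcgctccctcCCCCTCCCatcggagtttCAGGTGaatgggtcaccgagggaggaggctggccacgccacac
Cldn7, chr11:69964529-69964828, plus strand: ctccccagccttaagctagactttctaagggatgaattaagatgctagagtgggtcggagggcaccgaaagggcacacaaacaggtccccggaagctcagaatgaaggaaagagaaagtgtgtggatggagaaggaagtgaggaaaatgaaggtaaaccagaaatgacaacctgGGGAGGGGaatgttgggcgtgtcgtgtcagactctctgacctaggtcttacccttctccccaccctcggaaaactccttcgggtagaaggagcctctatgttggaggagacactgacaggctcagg
Cldn2, chrX:139800558-139800857, plus strand: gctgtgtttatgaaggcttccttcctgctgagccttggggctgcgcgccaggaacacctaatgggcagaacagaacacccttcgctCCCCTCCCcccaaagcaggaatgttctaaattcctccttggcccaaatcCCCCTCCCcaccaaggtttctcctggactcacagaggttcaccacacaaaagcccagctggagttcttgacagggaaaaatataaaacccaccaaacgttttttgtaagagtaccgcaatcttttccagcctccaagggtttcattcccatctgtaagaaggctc
Cldn4, chr5:134946885-134947184, minus strand: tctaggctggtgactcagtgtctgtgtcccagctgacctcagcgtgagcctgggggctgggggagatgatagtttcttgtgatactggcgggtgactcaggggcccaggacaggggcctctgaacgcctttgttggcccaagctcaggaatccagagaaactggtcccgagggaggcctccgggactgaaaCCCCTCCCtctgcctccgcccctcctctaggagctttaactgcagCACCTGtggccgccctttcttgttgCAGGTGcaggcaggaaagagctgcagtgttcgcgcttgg

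CAGGTG was present in 3 of the 8 windows, those of Ocln, Cldn3 and Cldn4, against 20.2% of all 32851 windows of this length. In these 32851 a gene can have several windows. In Ocln it began 7 bases after the start, and in Cldn4 matches began 14 bases before and 11 bases after it. CCCCTCCC was present in 5 of the 8 windows, those of Cldn2, Cldn4, Cldn7, Cldn15 and Ocln, against 12.2% of all windows. TATAAA, the core of the TATA box, began 35 bases before the start of Cldn2 and was in no other of these windows, against 13.6% of all. CTTTGA, the core bound by the TCF factors of the Wnt pathway, was in 0 of the 8, against 5257 of the 32851 windows. The GC box GGGCGG was in 5 of the 8, against 35.7% of all, and the AP-1 site TGANTCA in 2, against 7.81%. The Cldn2 window held TTTATG, a core of the CDX factors of the intestine, which 11.9% of all windows hold. Neither GTTAAT, part of the HNF1 site, nor CAAAGTC, part of the HNF4 site, nor GATAAG, read by GATA factors, was in any of the 8, against 7.1%, 4.44% and 7.44% of all. These 10 motifs were searched on both strands, and those shown in capitals were picked after the matches were seen. The E-box and the C-rich run occur both in Ocln and in Cldn4. No relation between the motifs and the day differences was tested.

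The epithelial label was checked against markers. All 10 epithelial markers exceeded the filter on low values, a mean log2(intensity + 16) at or above the median of all probe sets, which equals an intensity of 16.9. None of 6 endothelial markers on the array did, and their highest reading was 25.6. Among mesenchymal markers 2 of 8 passed and among immune markers 2 of 6, with highest readings of 45.6 and 31.2. Tacc3 read 59.8 in fl/fl against 184 in wt/wt organoids at day 4, and 49.7 in fl/fl against 167 in wt/wt organoids at day 6. Signs of RNA quality moved with the day. Actb had a 5′ over 3′ probe set ratio of 0.261 in fl/fl and 0.180 in wt/wt organoids at day 6, against 0.0627 in fl/fl and 0.0610 in wt/wt at day 4, and Gapdh one of 0.524 in fl/fl and 0.411 in wt/wt at day 6, against 0.142 in fl/fl and 0.208 in wt/wt at day 4. Spiked controls differed between the days and between the genotypes. The median ratio of wt/wt over fl/fl was 1.70 at day 6 and 1.62 at day 4 for the poly-A spike-ins. For the hybridization controls it was 1.32 at day 6 and 1.41 at day 4. Poly-A spike-in probe sets had a median ratio of day 6 over day 4 of 0.444 in fl/fl and 0.480 in wt/wt organoids, and the hybridization controls, which are added after the RNA is labelled, had one of 0.406 in fl/fl and 0.376 in wt/wt organoids.

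**Figure D1:**
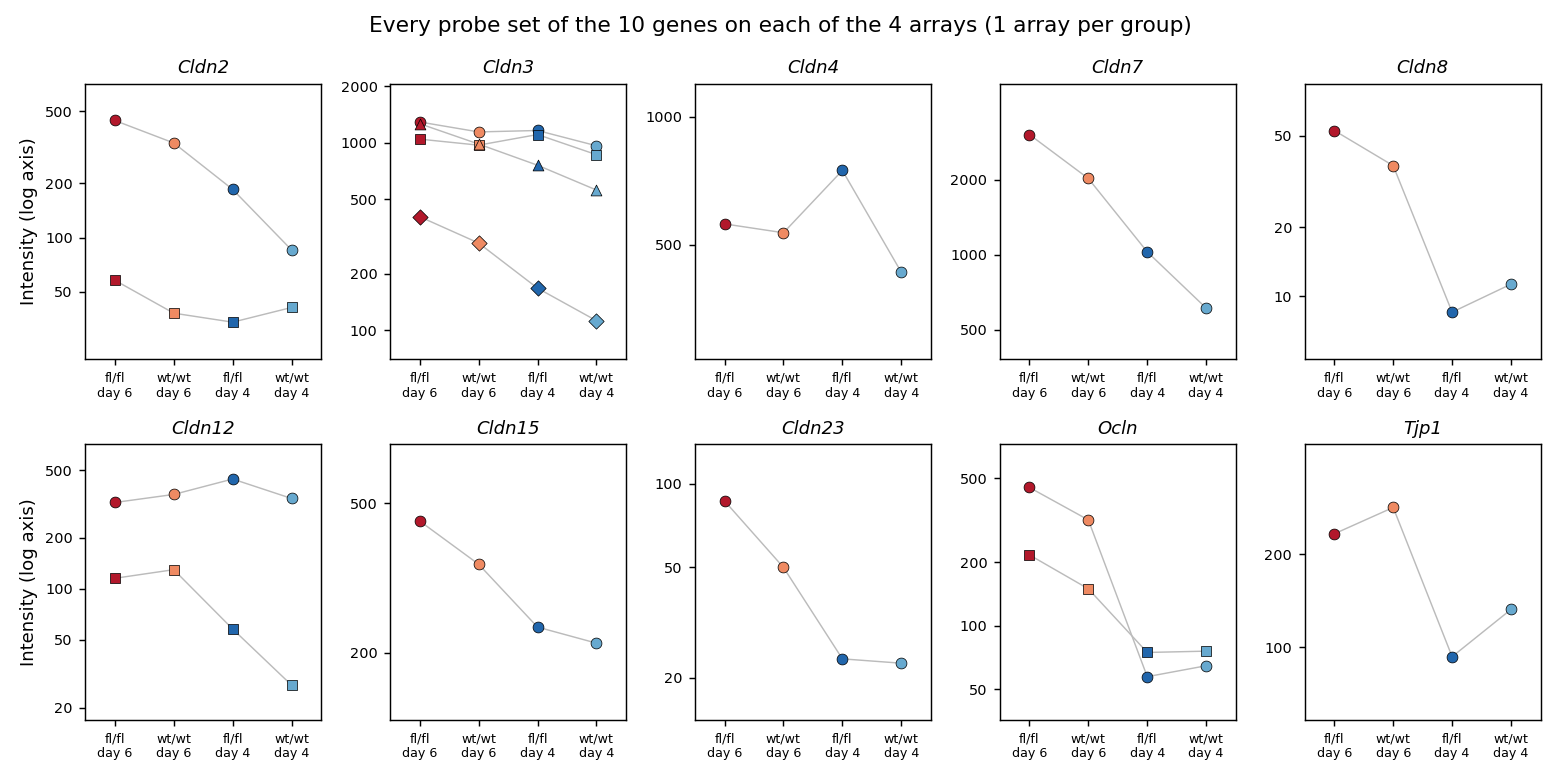
Deposited intensity (log axis) of each probe set of the 10 genes on the 4 arrays, with marker shapes for the probe sets of a gene, from circle for the brightest, and grey lines that join the readings of 1 probe set. In Cldn2 (brightest probe set), Cldn7, Cldn8, Cldn15, Cldn23, Ocln and Tjp1 both day 6 arrays lie above both day 4 arrays, while Cldn4 is highest in fl/fl organoids at day 4. How many of all genes are separated in this way was not counted, and Cldn8 passed the filter through the day 6 arrays alone.

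The comparison of day 6 with day 4 asks what differed between the days in each genotype. Most claudins of the set, occludin and the gene of ZO-1 were higher at day 6 on their brightest probe sets. At least 2-fold higher (1 on the log2 scale) were 6 of the 10 genes in fl/fl organoids, against 12.2% of the 11392 genes past the filter, and 4 of 10 in wt/wt organoids, against 18.3%. These counts depend on the pseudocount of 16. With a pseudocount of 4 they were 6 in fl/fl and 6 in wt/wt organoids, against 1710 and 2501 of all 11390 genes. With 64 they were 3 in fl/fl and 3 in wt/wt organoids, against 712 and 1081 of 11390 genes. The counts over all genes thus moved with the pseudocount too, and 6 against 4 is not read as a difference between the genotypes. Cldn8, which passed the filter through the day 6 arrays alone, is among each of these counts of 6. At the 60th percentile filter, which left Cldn8 out, 5 of 9 genes were 2-fold higher in fl/fl and 4 of 9 in wt/wt organoids. Of all 9769 genes past that filter, 1353 were so in fl/fl and 2029 in wt/wt organoids. At the main filter the 4 genes Cldn2, Cldn7, Ocln and Tjp1 were 2-fold higher in both genotypes, as were 9.37% of all genes. Under quantile normalization Cldn7 and Ocln alone of the 10 passed in both, and with a pseudocount of 64 Tjp1 passed in neither. No member was 2-fold lower in either, against 2.9% and 2.97%. With Cldn8 included, the median difference of the 10 genes was 1.19 in fl/fl and 0.87 in wt/wt organoids, where all genes had 0.00 and 0.17. The counts use the brightest probe set of each gene and describe size alone, since each group has 1 array. Where the days of a gene are said below to be separate or not to overlap, the share of all genes so separated was not counted. The only test was a limma fit with additive terms for day and genotype. It takes the genotype-by-day difference as a gene's error, with 1 residual degree of freedom. Limma then moderates that error with the variance of all genes, which adds 5.31 prior degrees of freedom for a total of 6.31. The SE and p-values below thus rest mostly on variance shared among genes, not on each gene's own error. All 16 probe sets passed the filter, but Cldn8 did so through the day 6 arrays alone, so its call was partly set by the filter and is not counted as a result. Of the 9 genes other than Cldn8, the fit called 6 higher at day 6 and 0 lower at an adjusted p under 0.05, against 22.9% and 7.25% of the 10813 genes that did not pass through 1 day alone. With Cldn8 included the count was 7 of 10, against 22.8% and 7.15% of all genes past the filter. Without a filter the limma fit called 4 of the 10 genes higher (Cldn2, Cldn7, Ocln and Tjp1), against 7.9% of 18193 genes. After quantile normalization, the 2-fold day calls among all genes were 928 higher and 674 lower in fl/fl organoids, against 1394 and 330 as deposited, and 1184 higher and 1107 lower in wt/wt organoids, against 2082 and 338. In such bulk RNA, more cells of a type and more RNA per cell cannot be told apart.

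Among the membrane proteins of the strand, occludin had the largest difference. The brightest Ocln probe set, 1448873_at, read 452 in fl/fl and 317 in wt/wt organoids at day 6, against 57.4 in fl/fl and 64.7 in wt/wt at day 4. Both day 6 arrays lay several-fold above both day 4 arrays. The log2 difference was 2.67 in fl/fl and 2.05 in wt/wt organoids, and Ocln rose in the limma fit by 2.36 ± 0.23 (SE, adjusted p = 0.00398). By mean day difference it ranked 64 of the 11392 genes. The other probe set, 1440220_at, read 216 in fl/fl and 150 in wt/wt at day 6, against 74.7 in fl/fl and 75.8 in wt/wt at day 4, in the same direction but with smaller differences of 1.36 in fl/fl and 0.85 in wt/wt.

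Cldn7, a basolateral claudin that binds the adhesion protein EpCAM, was bright on every array. It read 3036 in fl/fl and 2023 in wt/wt organoids at day 6, against 1028 in fl/fl and 611 in wt/wt at day 4. There was no overlap between the days, and within each day fl/fl exceeded wt/wt. Cldn7 rose by 1.62 ± 0.19 (SE, adjusted p = 0.00447 in the limma fit). Epcam, its binding partner, read 4704 in fl/fl and 4789 in wt/wt at day 6, against 1446 in fl/fl and 901 in wt/wt at day 4.

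The pore-forming claudins were Cldn2, whose product passes small cations and water in crypts, and Cldn15, the main sodium pore of the small intestine. Cldn2 probe set 1417231_at read 445 in fl/fl and 334 in wt/wt organoids at day 6, against 185 in fl/fl and 85.3 in wt/wt at day 4. It was lowest in wt/wt organoids at day 4 and rose with day by 1.49 ± 0.22 (SE, adjusted p = 0.00674 in the limma fit). The dimmer probe set, 1417232_at, read 58.0 in fl/fl and 38.1 in wt/wt at day 6, against 34.0 in fl/fl and 41.0 in wt/wt at day 4, so its days overlapped. With the mean of both probe sets the Cldn2 differences were 0.88 in fl/fl and 0.86 in wt/wt organoids, short of 2-fold. Cldn15 read 448 in fl/fl and 344 in wt/wt at day 6, against 234 in fl/fl and 212 in wt/wt at day 4. Its days did not overlap, and it rose by 0.78 ± 0.19 (SE, adjusted p = 0.0286 in the limma fit), although it stayed short of 2-fold in both genotypes. The call on Cldn15 was lost after quantile normalization, at an adjusted p of 0.172 in the limma fit.

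Cldn8, a sealing claudin best known from the distal colon and kidney tubule, and Cldn23, known from surface colonocytes, were the dim members. Cldn8 read 52.7 in fl/fl and 37.1 in wt/wt organoids at day 6, against 8.53 in fl/fl and 11.3 in wt/wt at day 4. Both day 4 readings lie below the filter's 16.9, where the log2 scale with a pseudocount understates a difference. Cldn23 read 86.9 in fl/fl and 50.0 in wt/wt at day 6, against 23.4 in fl/fl and 22.6 in wt/wt at day 4. In both genes the days were separate, in Cldn8 partly through the filter, and the fl/fl array was the higher at day 6. How many of all genes have separate days was not counted. As deposited, the ratio of day 6 over day 4 in Cldn8 was 6.18 in fl/fl and 3.28 in wt/wt organoids, and in Cldn23 it was 3.71 in fl/fl and 2.22 in wt/wt organoids. No test is given for Cldn8, which passed the filter through the day 6 arrays alone. Cldn23 rose by 1.08 ± 0.22 (SE, adjusted p = 0.0163 in the limma fit). Without a filter on low values that call was lost, with an adjusted p of 0.0678 in the limma fit, as was that of Cldn15 at 0.0549.

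Tjp1 encodes ZO-1, the scaffold that links claudins and occludin to actin. It read 233 in fl/fl and 283 in wt/wt organoids at day 6, against 93.2 in fl/fl and 133 in wt/wt at day 4. Both day 6 arrays were higher, and within each day the fl/fl array was the lower one. Tjp1 rose with day by 1.10 ± 0.19 (SE, adjusted p = 0.0100 in the limma fit). Its differences of 1.19 in fl/fl and 1.01 in wt/wt organoids fell short of 2-fold under quantile normalization, at 0.93 in fl/fl and 0.53 in wt/wt, and with a pseudocount of 64, at 0.92 in fl/fl and 0.82 in wt/wt.

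Cldn3, Cldn4 and Cldn12 did not pass the day test on their brightest probe sets. Cldn4, a sealing claudin, read 560 in fl/fl and 534 in wt/wt organoids at day 6, against 748 in fl/fl and 431 in wt/wt at day 4. Its days overlapped, with the highest and the lowest reading both at day 4, and the day term was -0.05 ± 0.24 (SE, adjusted p = 0.868 in the limma fit). Cldn12, a claudin without the usual PDZ-binding end and linked to calcium uptake, read 323 in fl/fl and 360 in wt/wt at day 6 on probe set 1433781_a_at, against 444 in fl/fl and 341 in wt/wt at day 4. Its day term was -0.18 ± 0.22 (SE, adjusted p = 0.528 in the limma fit). The dimmer Cldn12 probe set, 1433782_at, went another way, with 115 in fl/fl and 130 in wt/wt at day 6, against 58.0 in fl/fl and 27.1 in wt/wt at day 4.

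Cldn3, a sealing claudin found all along the gut, has 4 probe sets that disagreed in size. The brightest, 1434651_a_at, read 1288 in fl/fl and 1140 in wt/wt organoids at day 6, against 1160 in fl/fl and 962 in wt/wt at day 4, a day term of 0.20 ± 0.19 (SE, adjusted p = 0.445 in the limma fit). Probe set 1426332_a_at read 403 in fl/fl and 292 in wt/wt at day 6, against 168 in fl/fl and 113 in wt/wt at day 4, with log2 differences of 1.19 in fl/fl and 1.26 in wt/wt organoids. Probe set 1451701_x_at had differences of 0.72 in fl/fl and 0.80 in wt/wt, and 1460569_x_at of -0.08 in fl/fl and 0.17 in wt/wt. The day difference of Cldn3 thus ran from near 0 to over 2-fold with the probe set read. In a limma fit across all probe sets, added after the data were seen, 11 of the 16 probe sets of the 10 genes were called higher at day 6 and 0 lower, against 23.4% and 6.25% of the 19225 tested, and 1 of the 11 was the Cldn8 probe set. These included 1426332_a_at (adjusted p = 0.00679) and 1451701_x_at (adjusted p = 0.0275) of Cldn3, and 1433782_at of Cldn12 (adjusted p = 0.0149). Where each probe set lies on its transcript was not examined, and the part of RNA quality, which moved with the day, was not tested.

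**Figure D2:**
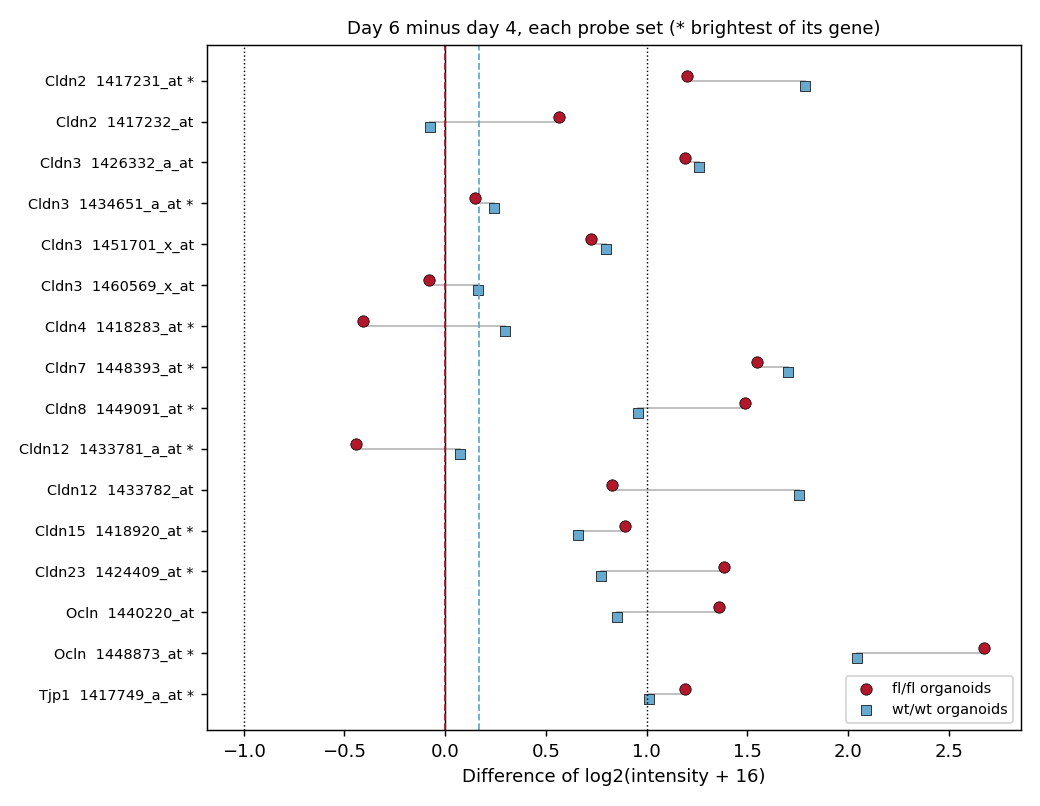
Day 6 minus day 4 in log2(intensity + 16) for each probe set, in fl/fl (circles) and wt/wt organoids (squares). Dashed lines mark the median of all genes past the filter, at 0.00 in fl/fl and 0.17 in wt/wt, and dotted lines 2-fold, and the probe sets of Cldn2, Cldn3 and Cldn12 spread across the 2-fold line.

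Other genes of the tight junction were called about as often as all genes. Of 28 listed partners, 24 passed the filter. The limma fit called 5 of the 24 higher at day 6 and 2 lower, against 22.8% and 7.15% of all genes, and their median difference was -0.06 in fl/fl and 0.23 in wt/wt organoids. The genes 2-fold higher in both genotypes were Magi3, a junctional scaffold, F11r, the junctional adhesion molecule JAM-A, and Prkci, an atypical protein kinase C of the polarity complex. Magi3 read 242 in fl/fl and 203 in wt/wt organoids at day 6, against 63.2 in fl/fl and 51.7 in wt/wt at day 4. F11r read 615 in fl/fl and 411 in wt/wt at day 6, against 231 in fl/fl and 149 in wt/wt at day 4, and Prkci 507 in fl/fl and 594 in wt/wt at day 6, against 204 in fl/fl and 126 in wt/wt at day 4. These 3 were named for being 2-fold higher in both genotypes, so their higher day 6 readings are not a further result. Of 15 other claudin and claudin-domain genes, 3 passed the filter, Cldn9 through the day 4 arrays alone. Their median difference was -0.31 in fl/fl and -0.50 in wt/wt organoids. The limma fit called 0 of the 3 higher and 1 lower, against 22.8% and 7.15% of all genes. The gene called was Cldnd1, a claudin-domain gene, which fell by 1.18 ± 0.19 with day (SE, adjusted p = 0.00816 in the limma fit). Cldn1, Cldn5 and Cldn18 stayed below the filter, with at most 20.4 on their brightest probe sets.

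The list of adherens junction and desmosome genes also held other adhesion genes, among them Epcam, Cdh17, Cdhr2 and Cdhr5. The limma fit called 10 of the 20 listed genes past the filter higher at day 6 and 1 lower, against 22.8% and 7.15% of all genes. Epcam, Cdh17 and Cdhr2 were among the 10. The median difference of the 20 genes was 0.45 in fl/fl and 1.01 in wt/wt organoids. Nectin3, an adhesion receptor, read 625 in fl/fl and 460 in wt/wt organoids at day 6, against 115 in fl/fl and 68.1 in wt/wt at day 4. Dsc2, a desmosomal cadherin, read 277 in fl/fl and 377 in wt/wt at day 6, against 64.2 in fl/fl and 48.2 in wt/wt at day 4. The difference between these lists was not tested.

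**Figure D3:**
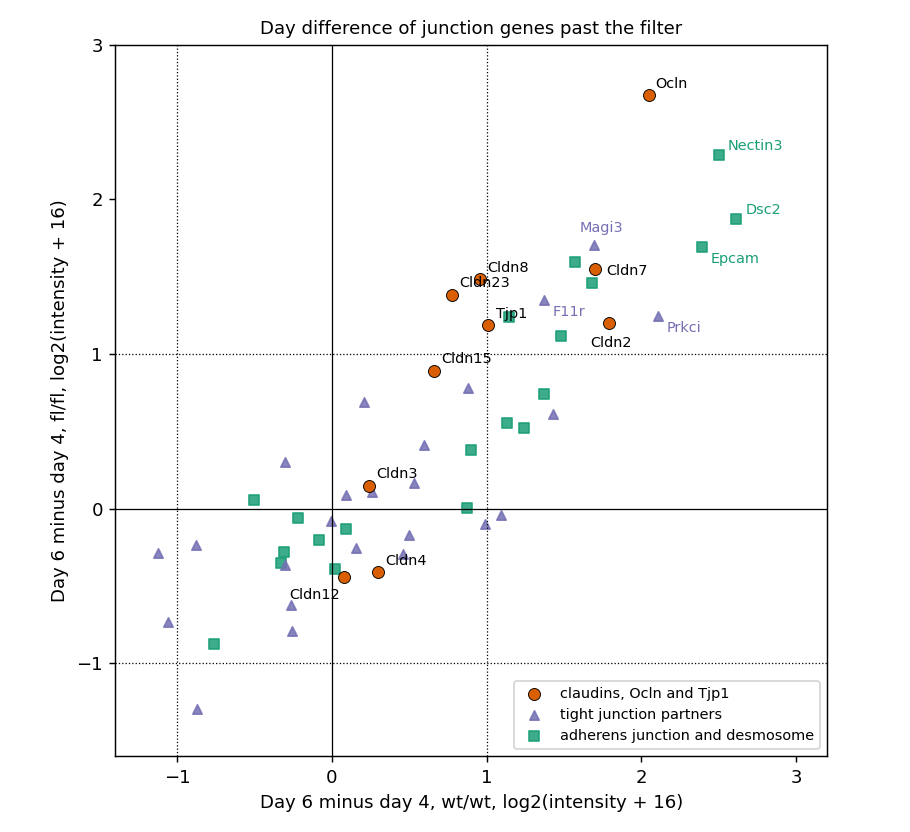
Day 6 minus day 4 in wt/wt (x axis) and fl/fl organoids (y axis), both in log2(intensity + 16), for the 10 genes (circles), 24 tight junction partners (triangles) and 20 adherens junction and desmosome genes (squares) past the filter. Ocln lies at the top, Cldn2, Cldn7, Ocln and Tjp1 lie beyond 2-fold on both axes, and Cldn4 and Cldn12 lie below 0 in fl/fl organoids.

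Markers of epithelial cell types moved with the day too. The summed intensity of 11 enterocyte markers was 12045 in fl/fl and 8100 in wt/wt organoids at day 6, against 1554 in fl/fl and 1380 in wt/wt at day 4. Of these 11, Fabp1 and Slc2a2 passed the filter through the day 6 arrays alone, and of the other 9 the limma fit called 8 higher and 0 lower, against 22.9% and 7.25% of the genes that did not pass through 1 day alone. The summed intensity of 10 stem cell markers was 8558 in fl/fl and 13250 in wt/wt at day 6, against 4219 in fl/fl and 3733 in wt/wt at day 4, with 7 called higher and 1 lower, against 22.8% and 7.15% of all genes. Of 6 Paneth cell markers 0 were called higher and 4 lower, and of 8 goblet cell markers 0 higher and 3 lower, against the same shares of 22.8% and 7.15%. Summed Paneth cell intensities were 37986 in fl/fl and 41376 in wt/wt at day 6, against 62455 in fl/fl and 45525 in wt/wt at day 4, and summed goblet cell intensities 13257 in fl/fl and 12794 in wt/wt at day 6, against 29384 in fl/fl and 20279 in wt/wt at day 4. Tff3 and Spink4 made up most of the goblet sums, with 9264 and 9596 in wt/wt at day 4. The median difference of the 8 goblet cell markers was -0.78 in fl/fl and 0.17 in wt/wt organoids. Muc2, Agr2, Clca1, Fcgbp and Zg16 read higher at day 6 in wt/wt organoids, as did Clca1 and Zg16 in fl/fl. The part of these cell types in the differences of the claudins was not tested.

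The genes most like Ocln over the 4 arrays, by the distance between log2 profiles centred on their own means, were 2010106E10Rik (0.05), Abcg2 (0.12), which encodes a drug efflux pump, and Pcna (0.13), the replication clamp. Abcg2 read 281 in fl/fl and 210 in wt/wt organoids at day 6, against 36.2 in fl/fl and 37.7 in wt/wt at day 4. Those most like Cldn12, the member with the lowest day difference, were Tmco6 (0.03), Socs7 (0.04) and Zfp112 (0.04). With 4 arrays such likeness is a description.

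The comparison of the genotypes asks what differed where Tacc3 was floxed. Spiked controls also differed between the genotypes, and the part of this in the gene differences was not tested. On the log2(intensity + 16) scale none of the 10 genes differed 2-fold at day 6, where 0.781% of all genes did, nor at day 4, where 1.48% did. Cldn2 at day 4 lay at this limit: its deposited intensities had a ratio of 2.17, and its difference was 1.08 with a pseudocount of 4 and 1.04 after median centring, against 0.99. The limma fit called 0 of the 10 and 0 of the 11392 genes by genotype, a share of 0.0%, while 2 of the 10 and 609 of all genes had an unadjusted p under 0.05. The median difference of the 10 genes was 0.37 at day 6 and 0.20 at day 4, against 0.05 and 0.15 for all genes. Cldn7 and Cldn2 were the 2 genes with an unadjusted p under 0.05.

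On the brightest probe sets Cldn2 had the largest genotype difference of the set, 0.99 at day 4, where it read 185 in fl/fl against 85.3 in wt/wt organoids, and 0.40 at day 6, with 445 in fl/fl against 334 in wt/wt organoids. Its genotype term was 0.69 ± 0.22 (SE, adjusted p = 0.784 in the limma fit). Between the genotypes the dimmer Cldn2 probe set gave 0.45 at day 6 and -0.19 at day 4, so the probe sets were of opposite sign at day 4. With the mean of the probe sets Cldn2 differed by 0.40 at day 4, below Cldn4 (0.77), Cldn7 (0.73) and Cldn12 (0.57). Cldn7 had genotype differences of 0.58 at day 6 and 0.73 at day 4, with a genotype term of 0.66 ± 0.19 (SE, adjusted p = 0.784 in the limma fit). Cldn4 differed by 0.07 at day 6 and 0.77 at day 4, and Cldn23 by 0.64 at day 6 and 0.03 at day 4.

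Tjp1 was the single member with a lower reading in fl/fl organoids on both days, with differences of -0.27 at day 6 and -0.44 at day 4. Its genotype term was -0.36 ± 0.19 (SE, adjusted p = 0.784 in the limma fit), so it did not pass the test. Cldn3 differed by 0.17 at day 6 and 0.27 at day 4, and Cldn15 by 0.37 at day 6 and 0.13 at day 4. The genotype differences of the days differed by at most 0.71 in size among the 10 genes on their brightest probe sets, in Cldn4, and none of them reached 2-fold, as 4.75% of all genes did.

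**Figure D4:**
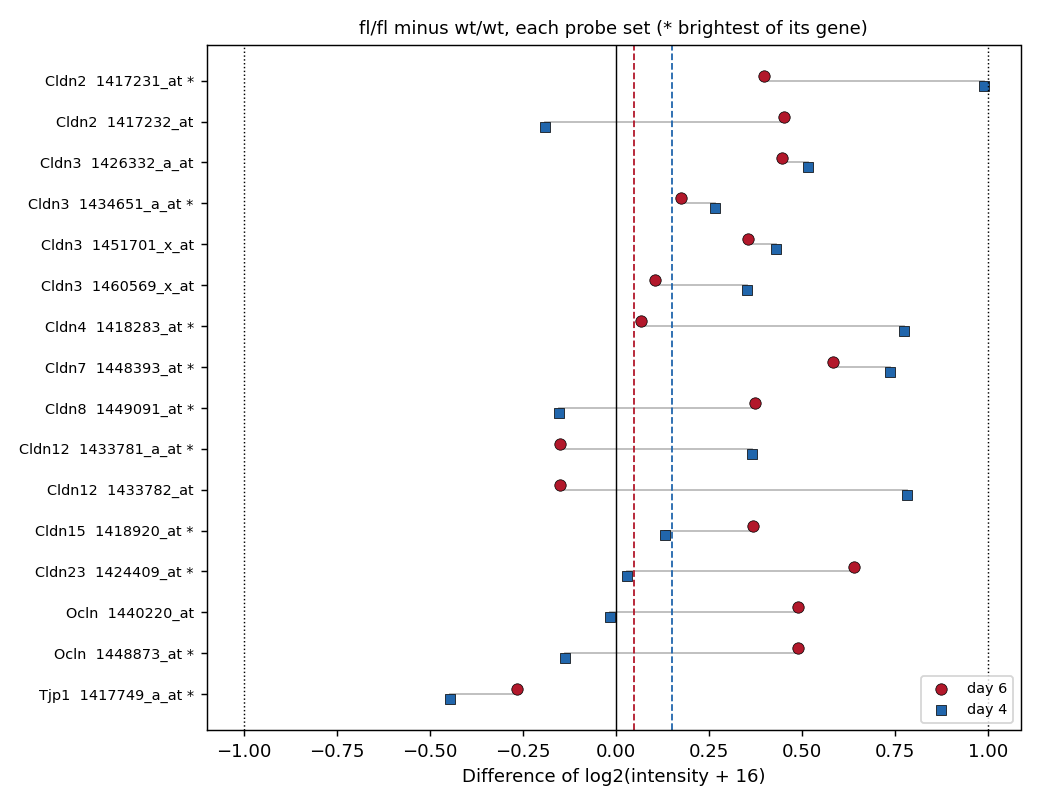
fl/fl minus wt/wt in log2(intensity + 16) for each probe set at day 6 (circles) and day 4 (squares). Dashed lines mark the median of all genes past the filter, at 0.05 at day 6 and 0.15 at day 4, and every probe set lies within the dotted 2-fold lines, with Cldn2 nearest to them at 0.99 at day 4.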

How the data were processed

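Biotinylated cRNA of 4 samples was hybridized to Affymetrix arrays after a 3′ in vitro transcription kit, per the labels' protocols. The deposited values are 1 linear intensity per probe set; how the authors summarised, background-corrected and scaled them is not given in the labels used here. Array medians ran from 15.4 to 17.7 and 95th percentiles from 303.0 to 439.0, so the arrays do not share 1 distribution. Groups were taken from the titles. With 1 array per group the number of arrays limits the precision, and no group has a replicate error.

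Intensities were analysed as log2(intensity + 16) with no further normalization, a scale that understates the differences of dim genes. Probe sets were named from the platform's gene table, with symbols updated through the Entrez ID to a RefSeq table of GRCm38.p6, used for names, which matched 34741 of them. Of the probe sets, 34945 had 1 symbol and 932 had several, which were left out. Each gene was read on its brightest probe set by mean, and 11392 genes had a mean at or above the median of all probe sets. Tests were additive fits in limma 3.58.1 (R 4.3.3) with Benjamini-Hochberg adjustment over all genes past the filter, tested on simulated data. Other steps ran in Python 3.11.15.

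The 10 genes, the gene lists and the tests were chosen with earlier results of these data known. The genes named were all members with every probe set, Tacc3, up to 3 genes per direction and list that were 2-fold in both genotypes, and the 3 genes nearest in profile to the members with the highest and lowest day difference. To save room, values of non-members are given for the junction lists and Abcg2. Alternatives changed the pseudocount (4 or 64), the scaling (median centring or quantile normalization), the summary of probe sets (their mean, or without x_at and s_at probe sets) and the filter (none, or the 60th percentile).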

Additional observations from a re-analysis of the deposited data

Results flagged for a closer look

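In 4 genes the sign of a difference was opposite between the days or the genotypes, with 1 array on each side and the difference between them not tested. How many of all genes have such opposite signs was not counted, so this is not read as a trait of the 4. The median day difference of all genes was 0.00 in fl/fl and 0.17 in wt/wt organoids. Their median genotype difference was 0.05 at day 6 and 0.15 at day 4. The day 6 minus day 4 difference of Cldn4 was -0.41 in fl/fl and 0.30 in wt/wt organoids, a gap of -0.71, and that of Cldn12 was -0.44 and 0.08, a gap of -0.52. The fl/fl minus wt/wt difference of Cldn12 was -0.15 at day 6 and 0.37 at day 4, which is the same gap of -0.52. In Ocln it was 0.49 at day 6 and -0.14 at day 4, a gap of 0.63. On the dimmer Ocln probe set, 1440220_at, it was 0.49 at day 6 and -0.02 at day 4. The day 4 readings of that probe set were nearly equal, at 74.7 in fl/fl and 75.8 in wt/wt organoids. In the dim Cldn8 it was 0.37 at day 6 and -0.15 at day 4, a gap of 0.53. The opposite day signs of Cldn4 and Cldn12 were lost under quantile normalization. Cldn4 then had -0.72 in fl/fl and -0.13 in wt/wt organoids, and Cldn12 -0.70 and -0.39. The dimmer Cldn12 probe set, 1433782_at, was higher at day 6 in both, by 0.83 in fl/fl and 1.76 in wt/wt organoids. Its genotype differences kept the signs of the brightest probe set, at -0.15 at day 6 and 0.78 at day 4.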

How the results depend on the processing

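No paired analysis was possible because each group has 1 array and the labels give no replicate numbers. The 50 differences of single genes were recomputed under 8 alternatives, which gave 395 values: 381 stayed on their side of 2-fold, 9 fell short of it, 5 newly reached it and 0 of the called ones changed sign. The count of genes 2-fold higher at day 6 in fl/fl organoids was 3 with pseudocount 64, against 6, and kept Cldn2, Cldn7 and Ocln. In wt/wt organoids it was 6 with pseudocount 4 and 3 with 64, against 4. Cldn8, past the main filter through the day 6 arrays alone, was among the 6 in both of these counts. Of all 11390 genes, 1710 in fl/fl and 2501 in wt/wt organoids were 2-fold higher at day 6 with pseudocount 4. With pseudocount 64 there were 712 in fl/fl and 1081 in wt/wt organoids. The genes 2-fold by genotype at day 4 numbered 1 with pseudocount 4 and 1 after median centring, in both cases Cldn2 (1.08 and 1.04), against 0. Over all genes, 347 were 2-fold higher in fl/fl and 51 lower with pseudocount 4, and 207 and 8 after median centring. Without a filter the limma fit called 4 of the 10 genes by day (Cldn2, Cldn7, Ocln and Tjp1), against 7; the cause was not tested. Quantile normalization took Tjp1 to 0.93 in fl/fl and 0.53 in wt/wt organoids and Cldn2 to 0.93 in fl/fl, all short of 2-fold, and moved the median day difference of all genes to -0.12 in fl/fl and -0.13 in wt/wt. Under it, genes 2-fold by day split into 928 higher and 674 lower in fl/fl organoids, against 1394 and 330 without it, and into 1184 higher and 1107 lower in wt/wt, against 2082 and 338. With the mean of its probe sets, Cldn3 was also called by day, at an adjusted p of 0.0410 in the limma fit. Cldn8 was below the 60th percentile and was not tested under that filter.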
